A study of Mus musculus with 2 samples.

Results

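Potassium channel genes, taken as all coding genes on chromosomes 1 to 19 whose symbol starts with Kcn except Kcnip1 and Kcnip4, were described for H3K9me2 peaks. The rule gave 90 genes of 20560 autosomal coding genes in RefSeq's gene table for GRCm38.p6 (mm10). The rule used symbols and places only, and no measured value. H3K9me2, dimethylated lysine 9 of histone H3, had been mapped by ChIP-seq in C57BL/6 embryonic cortex taken at day 15.5. The data were 1 wild-type library and 1 library of embryos carrying a TBC1D3 transgene. The promoter of the transgene and any pooling of embryos were not given in the sources used here. Each library had its own list of peaks, the wild-type one with 743 peaks and the transgenic one with 6253. As each genotype had 1 library, no test between genotypes was possible, and all intervals are exact 95% intervals that cover counting error only. A peak list gives no expression, so the labelled tissue could not be checked against its markers.

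Potassium channels set the resting potential of neurons and end the action potential by letting potassium leave the cell. Voltage-gated alpha subunits form pores that open on depolarization, inward rectifiers and tandem-pore channels hold the resting potential, and other pores open with intracellular calcium or sodium. Auxiliary subunits change how fast the pores open and close. H3K9me2 is a mark of repressed chromatin, made largely by G9a (Ehmt2) and GLP (Ehmt1), and the series title pairs G9a with TBC1D3. Which potassium channel genes carried listed peaks, in which library and where in the gene, was the question asked of the lists.

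Of the 90 Kcn genes, 3 held a wild-type peak (Kcnj3, Kcnh7 and Kcnma1) and 20 held a transgenic peak. A gene was counted when a peak overlapped its body or 2 kb on either side. The wild-type share was 3.33% of Kcn genes (0.693 to 9.43), against 0.953% of all autosomal coding genes. The transgenic share was 22.2% (14.1 to 32.2), against 5.75%. At least 2 transgenic peaks were found in 7 Kcn genes, and in 1.58% of all coding genes, a share not matched for length. Kcn genes were longer than most, with a median of 32.7 kb against 17.6 kb over all coding genes, and a longer gene has more room for a peak. Coding genes of like length, in 20 length bins, gave 2.39 Kcn genes with a wild-type peak and 11.8 with a transgenic peak. The wild-type number of 3 thus lay at its length expectation. The transgenic number of 20 lay above it, with an interval of 12.7 to 29.0 genes, which includes the 17.2 genes that the mean density of the chromosomes gives. Peaks were in both lists in 2 Kcn genes, Kcnh7 and Kcnma1, where 0.550% of all coding genes held both. That share is not matched for length, and these genes span 490.9 and 712.8 kb.

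In peaks rather than genes, the wild-type list held 3 in Kcn genes and the transgenic list 32, a ratio of 10.7 (3.34 to 54.4). The ratio over all other autosomal peaks was 8.20, inside that interval, so the excess of transgenic over wild-type peaks in Kcn genes was not distinguishable from that of the whole lists. The 90 genes with their flanks span 9.53 Mb. They held 3.36 transgenic peaks per Mb (2.30 to 4.74) against 1.70 over all coding genes, and 1.99 times (1.36 to 2.82) the density of the other coding genes. The whole autosomes held 2.53 transgenic peaks per Mb, and the mean density of each gene's chromosome gives 24.6 peaks. The interval of the 32 peaks, 21.9 to 45.2, includes that value. Its lower bound lies just above the 20.5 given by the peak density of coding genes of like length in 100 bins. The transgenic peak number in the full list was thus above that of coding genes and within counting error of the chromosome mean, and counting error takes peaks as independent. The ratio's interval included 1 at a −log10 p of at least 5 (1.39, 0.555 to 2.87), with only the 743 transgenic peaks of lowest q (1.74, 0.356 to 5.17) and among Kcn genes of 10.7 to 92.9 kb (2.21, 0.599 to 5.70). In the wild type the density was 0.315 peaks per Mb (0.0649 to 0.920), against 0.203 over all coding genes.

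**Figure D1:**
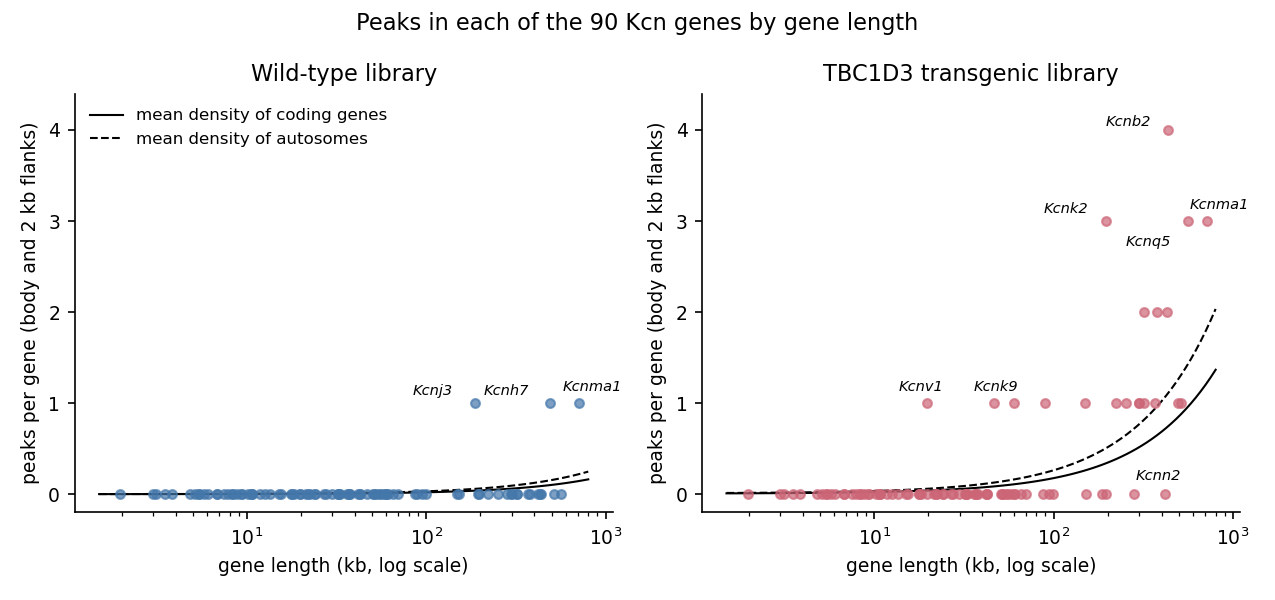
Number of peaks in each of the 90 Kcn genes (body and 2 kb flanks, vertical axis) against gene length in kb (log scale), by library. The solid line is the mean peak density of all autosomal coding genes times length, and the dashed line that of the autosomes. By point value most Kcn genes with a transgenic peak lie above both lines. Among them are Kcnb2 with 4 transgenic peaks and Kcnk2 with 3, of which 2 are 189 bp apart. Kcnn2 lies at 0 in spite of its 417.1 kb.

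Gene length ordered the Kcn genes in the transgenic library. Of 15 genes of 250 kb and over, 13 held a transgenic peak, which is 86.7% (59.5 to 98.3) against 59.2% of 676 other coding genes of that length. From 100 to 250 kb it was 3 of 6 genes against 18.3% of 1615, and from 25 to 100 kb 3 of 30 against 5.23% of 5922. Under 25 kb 1 of 39 Kcn genes held one, against 1.29% of 12257. The point value was above that of other genes in each class. In the 3 classes below 250 kb the interval of the Kcn share includes the share of the others, and in the longest class its lower bound is just above it. The peak density of the longest class was 3.74 per Mb (2.37 to 5.62) against 2.72. In each of the 4 classes the interval of the Kcn density includes the density of the others. In the wild type 2 of the 15 longest Kcn genes held a peak, against 14.3% of the others. The 20 genes with a transgenic peak had a median length of 310.2 kb and the 70 without one a median of 22.3 kb. They also lay in emptier surroundings, with a median of 6 coding genes within 500 kb against 16.5 for the Kcn genes without. Long genes in general do so, since the median was 8 for the 2291 other coding genes of 100 kb and over.

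**Figure D2:**
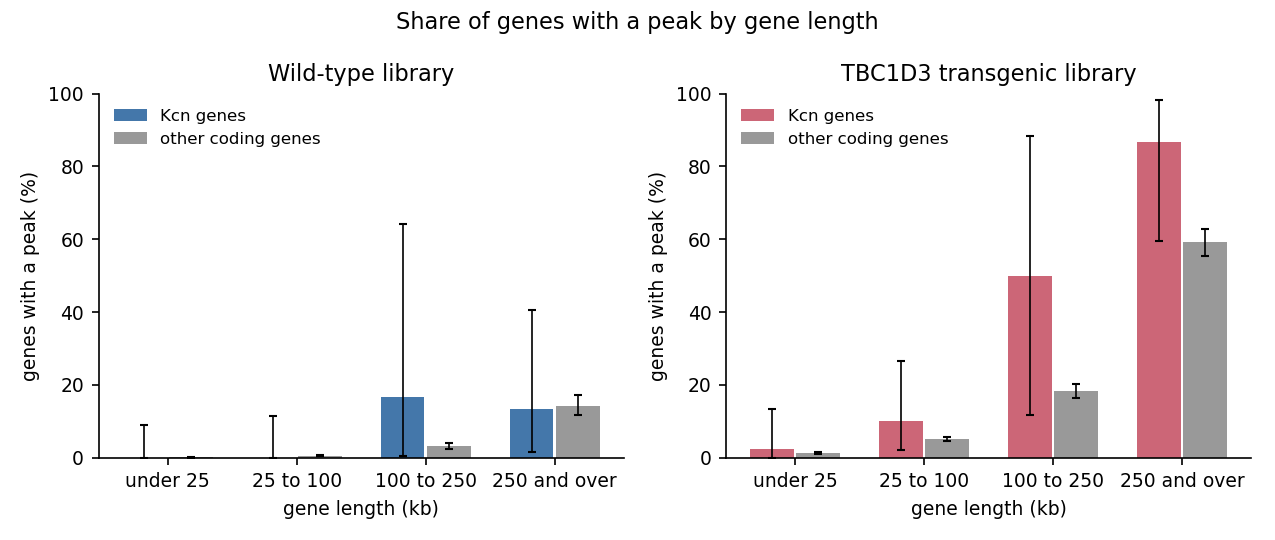
Share of genes with at least 1 peak (vertical axis, %) in 4 classes of gene length in kb, for Kcn genes (coloured) and other autosomal coding genes (grey), by library. Bars are shares and lines exact 95% binomial intervals. In the transgenic library the share of Kcn genes goes from 2.56% under 25 kb to 86.7% at 250 kb and over.

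All 35 listed peaks in Kcn genes lay inside the gene body, and none in the 2 kb flanks. The flanks are a small part of the 9.53 Mb counted, so few peaks would be found there in any case. For 66 of the 90 genes RefSeq windows around the start site (GRCm38.p6, 300 bases each, 88 windows) were at hand, and 0 of these windows overlapped a peak of either list. Over the 20085 such windows of all autosomal coding genes 2 overlapped a wild-type and 7 a transgenic peak, so few would be found in any set of 88. Of the 22 transgenic peaks in Kcn genes with a window, 3 lay within 10 kb of a start site. Of these 1 was in Kcnj16 and 2, only 189 bp apart, in Kcnk2. The median distance was 77.8 kb and the longest 633.2 kb, in Kcnma1. No such distances are at hand for peaks in other coding genes, so nothing particular to Kcn genes can be read from these. Of those 22 peaks, 15 lay before the midpoint of the gene in the direction of transcription, which is 68.2% (45.1 to 86.1) against 51.8% of 1321 peaks in other coding genes. The table has no exons, so exon, intron and untranslated region were not separated.

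The 250 bases before a RefSeq start site are shown for the 3 genes with a wild-type peak and for the 2 start sites nearest to a peak inside the same gene, 5′ to 3′ from RefSeq (GRCm38.p6), with each CG in capitals, the dinucleotide that can be methylated in DNA.
Kcnh7 (chr2:63184288-63184537, minus strand): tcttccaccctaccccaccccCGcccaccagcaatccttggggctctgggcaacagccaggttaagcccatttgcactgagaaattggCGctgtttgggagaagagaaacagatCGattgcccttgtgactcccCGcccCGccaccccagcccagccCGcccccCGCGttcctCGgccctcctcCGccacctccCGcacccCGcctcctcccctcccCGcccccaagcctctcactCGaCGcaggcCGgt
Kcnma1 (chr14:24004206-24004455, minus strand): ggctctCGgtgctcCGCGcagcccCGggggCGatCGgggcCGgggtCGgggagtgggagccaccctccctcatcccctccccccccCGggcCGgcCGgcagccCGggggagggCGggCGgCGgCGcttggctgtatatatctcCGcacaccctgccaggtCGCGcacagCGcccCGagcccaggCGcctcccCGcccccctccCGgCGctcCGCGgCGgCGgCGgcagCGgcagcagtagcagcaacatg
Kcnj3 (chr2:55435720-55435969, plus strand): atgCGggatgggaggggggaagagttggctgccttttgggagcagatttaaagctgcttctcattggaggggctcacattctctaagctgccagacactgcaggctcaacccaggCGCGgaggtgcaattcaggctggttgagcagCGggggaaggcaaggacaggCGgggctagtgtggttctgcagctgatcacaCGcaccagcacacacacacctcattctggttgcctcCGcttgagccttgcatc
Kcnj16 (chr11:110967783-110968032, plus strand): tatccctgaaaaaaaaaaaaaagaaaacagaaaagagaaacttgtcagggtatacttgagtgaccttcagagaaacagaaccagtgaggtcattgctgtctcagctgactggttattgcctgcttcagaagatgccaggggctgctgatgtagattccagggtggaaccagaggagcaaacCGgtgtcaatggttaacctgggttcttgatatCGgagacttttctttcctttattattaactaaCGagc
Kcnk2 (chr1:189344193-189344442, minus strand): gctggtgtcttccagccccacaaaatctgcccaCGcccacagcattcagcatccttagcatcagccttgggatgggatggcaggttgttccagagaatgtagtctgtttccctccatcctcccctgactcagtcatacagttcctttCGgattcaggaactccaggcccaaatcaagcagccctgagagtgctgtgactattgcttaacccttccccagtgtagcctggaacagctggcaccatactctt
These 250 bases hold 31 CG in Kcnma1, 16 in Kcnh7 and 7 in Kcnj3, genes with 1 window each. They hold 3 at this start of Kcnj16 and 2 at this start of Kcnk2, each 1 of 4 windows of its gene. As those 2 starts were picked for a near transgenic peak, their counts cannot be set against the first 3. The stretches of Kcnma1, Kcnj3 and Kcnk2 lie inside the gene span counted above, which reaches further upstream than these start sites. The Kcnj16 start lies 5.64 kb from the transgenic peak and the Kcnk2 start 6.85 kb. The full windows of 300 bases held a median of 9 CG over the 88 Kcn windows (0 to 49), against 14 over all coding windows. The median was 9 both for genes with a transgenic peak (25 windows) and for those without (63 windows). The letters TATAAA stood on either strand in 5 of 88 Kcn windows (5.68%; in Kcnab1, Kcnj9, Kcnj13, Kcnj15 and Kcnj16), and in 12.7% of all coding windows. TTCAGCACC, the left part of the element bound by the neuronal gene repressor REST, stood on either strand in 1 Kcn window (1.14%; in Kcnh6) and in 0.413% of coding windows, and these letters share no overlap with TATAAA.

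**Figure D3:**
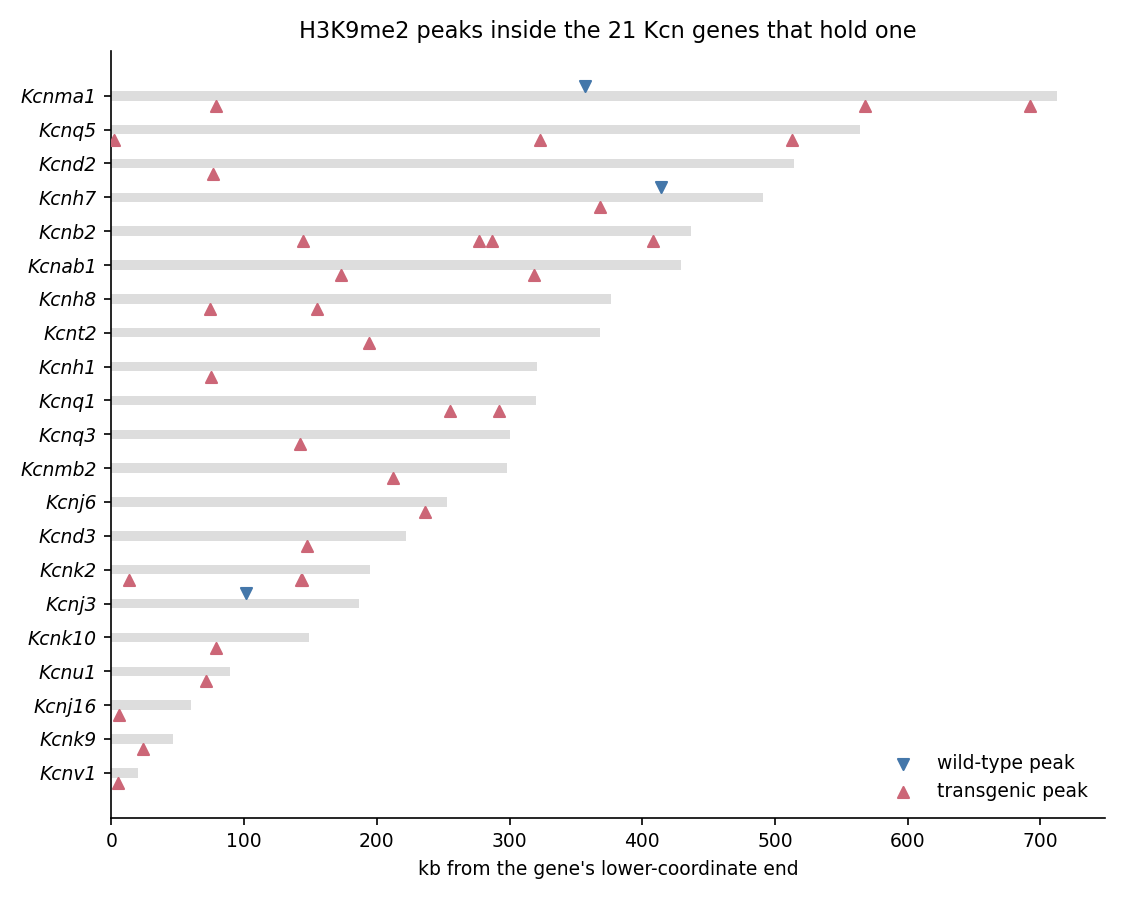
The 21 Kcn genes that held a peak in either list, ordered by length, each drawn as a grey bar in kb from its lower-coordinate end, with wild-type peaks above the bar and transgenic peaks below. Of the 3 wild-type peaks none lies at a transgenic peak, and the nearest pair, in Kcnh7, is 45.9 kb apart. Their median distance to a transgenic peak was 176.6 kb. Over all autosomal wild-type peaks it was 93.5 kb, so such gaps are usual between these lists. The close Kcnk2 pair appears as 1 symbol.

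The voltage-gated alpha subunits are the largest class, with 39 genes. Of these 1 held a wild-type peak and 10 a transgenic peak, where coding genes of like length give 1.36 and 6.47. In 100 bins these values were 1.30 and 6.51, and at chromosome density 1.36 and 8.60. The class held 17 transgenic peaks in all, against 12.6 at the density of the genes' chromosomes. Kcnb2, a delayed rectifier of neurons (chr1:15286925-15723751), held 0 wild-type and 4 transgenic peaks (1.09 to 10.2), where its chromosome's mean density gives 1.19, inside that interval. It had the most peaks of any Kcn gene, and 0.686% of all coding genes, whatever their length, held 3 or more. Its folds ran from 2.86 to 3.65 and its peaks rested on 5 or 6 fragments each, and 3 of the 4 lay inside predicted genes within Kcnb2 as well (Gm51415, Gm51616 and Gm51617). Fold, here and below, is the authors' value per peak, the pileup plus 1 over the local background plus 1.

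Several Kcnq genes encode the slow, non-inactivating potassium current that restrains repeated firing of neurons, while Kcnq1 serves heart and epithelia. Of 5 genes 3 held transgenic peaks and 0 held a wild-type peak. Kcnq5 (564.3 kb) held 3 peaks against 1.53 at the chromosome density, at chr1:21400289-21400399, chr1:21721368-21721576 and chr1:21911293-21911403. The first of these lay 1.95 kb inside the 3′ end of the gene and had a fold of 3.52. Kcnq1 held 2 peaks of 8 fragments each against 0.727, at chr7:143361675-143361809 (fold 4.08, q 0.0927) and chr7:143398967-143399116 (fold 3.78). Kcnq1 contains Kcnq1ot1, the antisense noncoding RNA of an imprinted cluster, and both peaks lay outside it, the nearer 65.1 kb away. Kcnq3 (300.3 kb) held 1 peak of fold 3.45.

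Of the 8 Kcnh genes, which encode the ether-a-go-go family, 3 held a transgenic peak. Kcnh7 (chr2:62693410-63184287) was the only voltage-gated gene with a peak in both lists. Its wild-type peak at chr2:63107184-63107264 rested on 7 fragments (fold 4.86, q 1.00) and its transgenic peak at chr2:63061180-63061303 on 5 (fold 2.86, q 0.374). The wild-type peak was the strongest of the 3 in Kcn genes by fold, and the transgenic peak shared the lowest fold among the 32. Kcnh8 (376.5 kb) held 2 transgenic peaks, of fold 4.03 and 3.52, and Kcnh1 (321.0 kb) 1 of fold 3.11. Kcnh1 also had a wild-type peak 8.01 kb upstream of the gene (fold 3.49), outside the 2 kb extension. Kcnh5, at 280.1 kb, held 0 in both lists, where 41.5% of coding genes of like length (in 100 bins) held a transgenic peak.

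Both autosomal Kcnd genes, which encode A-type channels that open below the firing threshold, held 1 weak transgenic peak and 0 wild-type peaks. The peak of Kcnd2 (514.5 kb) rested on 5 fragments (fold 3.02), against 1.32 peaks at the chromosome density, and that of Kcnd3 (222.1 kb) on 5 as well (fold 2.86). Kcnd2 is among the longest genes of the set and had no more than its length gives.

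Kcnv1, a silent subunit that alters the pores it joins, was the shortest Kcn gene with a peak at 19.8 kb. It held 0 wild-type peaks and 1 transgenic peak at chr15:45101206-45101324, of 8 fragments (fold 4.53, q 0.0742), where the chromosome density gives 0.0623 peaks. The nearest wild-type peak was 44.8 kb from the gene. The 8 Kcna genes, many of them channels of axons, are short (at most 36.2 kb), and 0 of 8 held a peak in either list. The nearest was a transgenic peak 9.69 kb from Kcna5 (fold 4.19, q 0.0895). Kcns2, a silent subunit, had one at 4.94 kb (fold 3.94). The 4 Kcnc genes of fast-spiking neurons held 0, although Kcnc2 spans 196.4 kb, a length at which 29.6% of coding genes held a transgenic peak.

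Among the 15 inward rectifiers 1 held a wild-type and 2 a transgenic peak, against length expectations of 0.175 and 1.00. In 100 bins these values were 0.156 and 0.895, and at chromosome density 0.236 and 1.77. Kcnj3 and Kcnj6 encode subunits of the same G-protein-gated channel, and their peaks were in different lists. Kcnj3 (chr2:55411798-55598145) held a wild-type peak of 6 fragments at chr2:55512911-55512967 (fold 4.34, q 1.00) and 0 transgenic peaks, the nearest being 91.4 kb away. A second wild-type peak lay 3.32 kb outside the gene (fold 3.72). It was the only Kcn gene with a wild-type peak and no transgenic one, and 0.456 transgenic peaks are expected there at the chromosome density, so 0 does not set it apart. Kcnj6 (252.7 kb) held 1 transgenic peak of 6 fragments (fold 3.32) and 0 wild-type peaks. Kcnj16, which encodes a subunit that pairs with that of Kcnj10 in glia and kidney, held 1 transgenic peak of fold 3.52 in 59.9 kb. Kcnj10 itself held 0 in both.

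Of 14 tandem-pore-domain genes, which carry leak currents, 0 held a wild-type and 3 a transgenic peak, where length gives 0.190 and 1.06. In 100 bins these values were 0.117 and 0.966, and at chromosome density 0.230 and 1.71. The 5 transgenic peaks of the class make 6.51 per Mb (2.11 to 15.2). This is the highest point value of the 5 classes, with an interval that overlaps those of the other 4. Kcnk2, a channel opened by membrane stretch and lipids, held 0 wild-type and 3 transgenic peaks (0.619 to 8.77) in 194.9 kb, against 0.535 at the chromosome density. The 2 peaks at chr1:189351040-189351150 (fold 3.39) and chr1:189351340-189351452 (fold 4.01) were 189 bp apart, and the third, at chr1:189221244-189221394, had a fold of 3.52. Its relative Kcnk10 (148.8 kb) held 1 peak of 8 fragments (fold 3.89). Kcnk9, an acid-sensitive leak channel, held the strongest transgenic peak of all Kcn genes, at chr15:72525444-72525555, with 10 fragments, a fold of 4.75 and a q of 0.0673, the lowest q in that list, which other peaks share. Kcnk9 spans 46.7 kb, a length at which 8.74% of coding genes held a transgenic peak. Kcnk13 (99.5 kb) held 0 in both lists.

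The calcium- or sodium-activated class was set by symbol (Kcnma, Kcnn, Kcnt and Kcnu). Of its 8 genes 1 held a wild-type and 3 a transgenic peak, against 0.397 and 1.88 by length. Kcnma1, the pore of the large-conductance calcium-activated channel and the longest Kcn gene at 712.8 kb (chr14:23292288-24005110), held 1 wild-type and 3 transgenic peaks. Its wild-type peak at chr14:23648788-23648844 was weak, with 6 fragments and a fold of 3.35, and lay inside the predicted gene Gm51422 as well. Its transgenic peaks rested on 8 fragments each, at chr14:23370984-23371094 (fold 4.02), chr14:23860123-23860282 (fold 3.03) and chr14:23984498-23984718 (fold 4.53, q 0.0742). The chromosome density gives 0.277 and 1.91 peaks, and both intervals (0.0253 to 5.57 and 0.619 to 8.77) include those values. Kcnt2, a sodium-activated channel, held 1 transgenic peak of fold 3.17 in 368.4 kb. Kcnu1, a channel of sperm that is in the class by its symbol alone, held 1 of fold 3.52 in 89.3 kb. The Kcnn genes, which encode calcium-activated channels of small or intermediate conductance, held 0 of 4 in both lists. Kcnn2 was the longest Kcn gene without a peak (417.1 kb). There the chromosome gives 1.20 transgenic peaks, and 61.2% of coding genes of like length (in 100 bins) held one. Kcnn3, of 152.3 kb, also held 0.

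Of 14 auxiliary and other genes 0 held a wild-type and 2 a transgenic peak, where length gives 0.269 and 1.40. In 100 bins these values were 0.233 and 1.40, and at chromosome density 0.299 and 2.08. Kcnab1, a beta subunit that speeds inactivation, held 2 transgenic peaks in 429.0 kb, of 7 and 6 fragments, against 1.16 at the chromosome density. The second (fold 3.17) lay inside A330015K06Rik as well. Kcnmb2, a beta subunit of the channel whose pore Kcnma1 encodes, held 1 of fold 3.34 in 298.3 kb. The other genes of the class, among them Kcnab2 (86.8 kb) and the 4 Kcne genes, held 0 in both lists. In the voltage-gated class Kcng2, a silent subunit of 69.7 kb, was also without a peak.

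**Figure D4:**
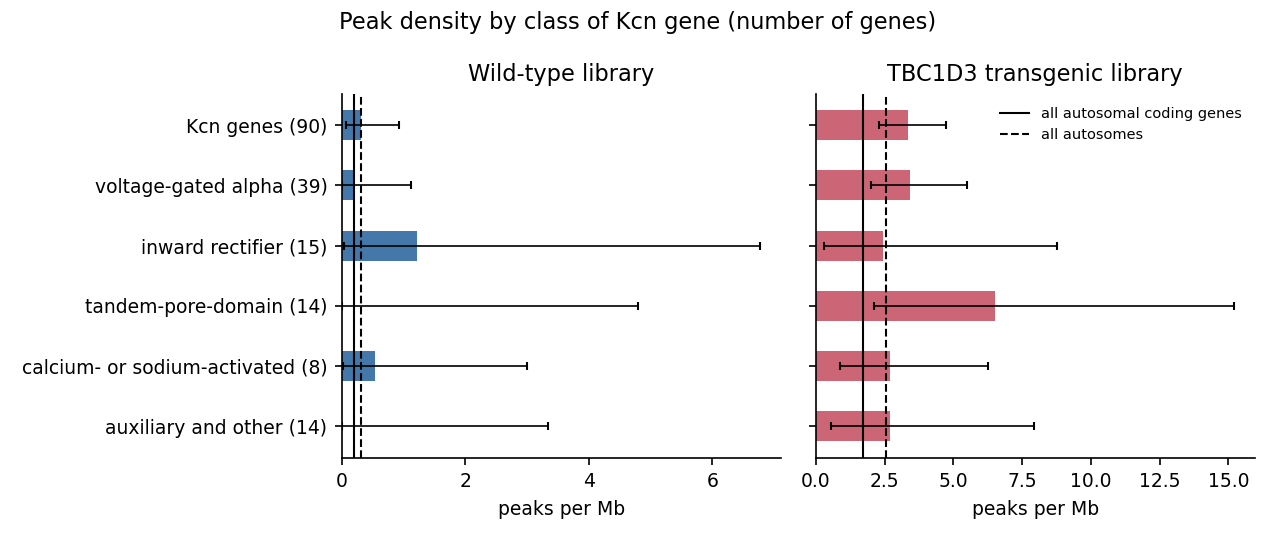
Peaks per Mb of gene body and 2 kb flanks (horizontal axis, separate scales) for all Kcn genes and their 5 classes, by library, with the number of genes in parentheses. Bars are densities, error lines exact 95% Poisson intervals, the solid line all autosomal coding genes and the dashed line all autosomes. The tandem-pore-domain genes have the highest transgenic value, 6.51, and the intervals of the classes overlap.

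The peaks in Kcn genes were of ordinary strength for their lists, a comparison that does not show the lists themselves to be strong. Of the other 739 autosomal wild-type peaks 0 had a listed q of at most 0.1, and the lowest was 0.136. The lowest listed q of an autosomal transgenic peak was 0.0673. Median widths were 57 bp for wild-type peaks in Kcn genes and elsewhere, and 115.5 and 115 bp for transgenic ones. These widths lie at or close to the lengths to which fragments were extended. The 32 transgenic peaks had a median fold of 3.52 (2.86 to 4.75) against 3.62 for the other 6060 autosomal peaks, and a median of 6 fragments in both sets. Peaks of 8 or more fragments made up 8 of the 32, a share with an interval of 11.5% to 43.4%, against 22.0% of the others, and stood in Kcnma1 (3), Kcnq1 (2), Kcnv1, Kcnk9 and Kcnk10. The listed q was at most 0.1 for 5 of 32, 15.6% (5.28 to 32.8) against 23.3%. None of the peaks in Kcn genes reached a fold of 5, which 2.66% of transgenic and 8.36% of wild-type autosomal peaks did. The 3 wild-type peaks each had a q of 1.00. The lists hold no signal outside peaks, so 0 peaks in a gene is no measure of a low H3K9me2 level.

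Other channel families were counted in the same way. Of 25 genes with symbols of voltage-gated calcium channels 2 held a wild-type and 6 a transgenic peak (length gives 1.14 and 5.45). Cacna2d3 alone held 9 transgenic peaks. The 25 include all Cacng genes, which were taken by symbol and held 0 in both lists. Of 18 genes with symbols of the ionotropic glutamate receptors the numbers were 2 and 5 (1.24 and 5.61), with 8 transgenic peaks in Grin2a. The 18 include Grid2ip, which encodes a protein that binds such a receptor and held 0 in both lists. Of 14 sodium channel genes they were 1 and 2 (0.241 and 1.42). No Kcn gene held more than 4 transgenic peaks, and 13 of the 20 held 1. The Kcn density of 3.36 transgenic peaks per Mb (2.30 to 4.74) lay between that of the glutamate receptors, 2.45 (1.37 to 4.05), and the calcium channels, 3.99 (2.44 to 6.17). It was above the point values of the sodium channels, 1.52 (0.185 to 5.50), and of the partner genes described next, 1.72 (0.887 to 3.0), and all 4 intervals overlap that of the Kcn genes. Of 20 genes that work with potassium channels or are close to them 1 held a wild-type and 7 a transgenic peak, against 0.882 and 4.14 by length. In 100 length bins 5.60 transgenic genes are given there, and at chromosome density 6.76. These 2 values were 6.22 and 8.05 for the calcium channels and 6.93 and 8.02 for the glutamate receptors. For the sodium channels they were 1.44 and 2.79. Dpp6, a partner of the Kcnd channels, held 1 and 3 peaks in 910.1 kb, and Abcc9, the sulfonylurea receptor of vessels and heart, 0 and 2 in 114.9 kb. Cntnap2, which clusters Kcna channels on axons, held 0 and 3 in 2241.3 kb, where the chromosome density gives 5.71 transgenic peaks. Dpp10 held 0 and 1 in 1513.7 kb against 4.08.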

How the data were processed

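H3K9me2 ChIP-seq peak lists of 1 wild-type and 1 TBC1D3 transgenic library were used as deposited. Per the file headers, MACS version 2.1.0.20150420 was run by the authors on each library against its own input (p cutoff 0.001), with fragments extended to 57 bp (wild type) and 111 bp (transgenic) at depths of 26735120 and 20697113 ChIP tags. Extension and depth bear on list length and cannot be told apart from genotype. The submitters' processing notes also name BWA and mm10. The deposited pileup signal (fragments over the summit) was divided by its scale, 0.951 and 1.00. The deposited fold ratio, −log10 p and −log10 q are the authors' values. The headers say that q was not calculated, yet values are listed.

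Peaks were counted (Python 3.11.15, scipy 1.17.1) over GRCm38.p6 genes with 2 kb flanks, without genes starting below 3 Mb. Length expectation sums, over members, the share of coding genes with a peak in the same of 20 length bins. The shares of coding genes of like length given for single genes come from 100 bins. Chromosome density is peaks over the span from 3 Mb to the last gene end. Shares have Clopper-Pearson intervals, counts Poisson intervals, and ratios intervals from the binomial share. Counting was tested on simulated data. Named genes were Kcn genes with a peak, the 8 longest without, those with a peak within 10 kb, and up to 4 genes of each other list. One gene that this rule selected is not reported here. Members and lists were chosen with earlier results of these data known. CG counts, motifs and gene surroundings were added after the lists had been seen.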

Additional observations from a re-analysis of the deposited data

How the results depend on the processing

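No paired analysis was possible because each genotype has 1 library, and none could be left out. The number of Kcn genes with a peak, the number of peaks, the density ratio and the number of genes in both lists moved little with the gene body alone, merging within 1 kb or peak midpoints. With a 10 kb extension the 3 wild-type peaks became 5. A fold of at least 5 left 0 genes, 0 peaks, a ratio of 0 and 0 genes in both lists, in each library. A −log10 p of at least 5 left 1 wild-type gene with 1 peak, 6 transgenic genes with 7 peaks and 0 in both lists. The transgenic density ratio there was 1.39 (0.555 to 2.87), an interval that includes 1. With the transgenic list shortened to 743 peaks by q, 3 Kcn genes held 3 peaks at a ratio of 1.74 (0.356 to 5.17), and 1 gene was in both lists. Each of these filters shortens the lists. Among genes of the middle range of Kcn lengths (10.7 to 92.9 kb) the wild-type ratio was 0, with 0 peaks, and the transgenic ratio 2.21 (0.599 to 5.70). Without Kcnb2 the transgenic ratio was 1.83 (1.21 to 2.65), and at 100 kb and over, an alternative chosen after seeing the data, 1.76 (1.16 to 2.55). The length expectation of 11.8 transgenic genes was 12.2 in 100 bins and 17.2 at chromosome density. The interval of the 20 genes observed (12.7 to 29.0) includes the last of these.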

Other observations

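Kcn symbols outside the rule held few peaks. Kcnip4, a calcium-binding partner of the Kcnd channels that spans 1135.6 kb, held 1 wild-type and 2 transgenic peaks. Kcnip1, its relative of 364.0 kb, held 0 and 0. The X-linked genes Kcnd1 and Kcne1l held 0 in both lists, as did the 4 noncoding genes Kcnq1ot1, Kcnd3os, Kcnmb4os1 and Kcnmb4os2.

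Beyond the 2 kb flanks, Kcnb2 had a further transgenic peak 2.25 kb away (fold 3.52) and Kcnu1 one 5.61 kb away (fold 3.30). With these and the peaks near Kcns2 and Kcna5, 4 transgenic and 2 wild-type peaks lay between 2 and 10 kb from a Kcn gene.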
